A study of Mus musculus with 6 samples.

Results

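The chaperone and unfolded protein response genes were examined in the cerebral cortex of fetal male mice after maternal exposure to bisphenol A (BPA), an estrogenic plastic monomer. The set had 39 members, found as the rows of the deposited count table whose gene symbol equals a listed name, out of 45583 rows in all. By compartment there were 15 cytosolic heat shock genes, 3 mitochondrial chaperones and 21 genes of the endoplasmic reticulum (ER). No measured value of these libraries enters the rule that picks the members by name. Earlier results of these data were, however, known when the list was chosen.

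The libraries came from 6 fetuses at E15.5 (embryonic day), 3 per group and 1 library per fetus. All were of the Cyp19-EGFP strain, in which a transgene places green fluorescent protein under control of the aromatase gene, and all carried the genotype label WT, SRY +. Dams received 50 µg/kg BPA or vehicle by daily subcutaneous injection from E10.5 to E14.5. The labels name the vehicle as peanut oil, while the study describes ethanol and peanut oil for BPA and vehicle alike. Tissue was bulk cortex without sorting, so fewer cells of a type and less RNA per cell cannot be told apart. Fetuses are numbered in the labels but dams are not, so fetuses of 1 group may share a litter and p-values measure the spread between these fetuses only.

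Chaperones hold unfolded proteins and use ATP to help them reach their native shape. In the cytosol, heat shock factors raise the transcription of Hsp70, Hsp90 and small heat shock proteins when misfolded protein accumulates. In the ER, the sensors IRE1, PERK and ATF6 respond to unfolded secretory protein: IRE1 splices the Xbp1 message, PERK slows translation while favoring that of Atf4, and ATF6 is cut to release a transcription factor, and together these arms induce BiP and other folding enzymes. Neural progenitors and young neurons secrete and insert large amounts of membrane protein, and both systems are active at a basal level in the developing cortex.

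Depth ranged from 5030652 to 7180835 counts in vehicle and from 3444601 to 6426857 in BPA, so that 3 counts, taken as the detection floor, corresponded to 0.422 to 0.875 CPM (counts relative to the TMM-scaled library size). All 9 dorsal cortex neuron markers were above the floor in every library, with a summed level of 3809 to 4230 CPM in vehicle and 3958 to 4217 CPM in BPA. Of 8 choroid plexus markers, 3 were above the floor in every library and none was at 0 throughout. Their sum was 14.1, 230.2 and 12.6 CPM in vehicle replicates 1 to 3 and 20.1, 366 and 16.3 CPM in BPA replicates 1 to 3, so that vehicle 2 and BPA 2 stood apart from the rest. The sum of 9 ventral telencephalon markers was 759 to 878 CPM in vehicle and 608 to 726 CPM in BPA, without overlap. Blood markers summed to 286 to 599 CPM in vehicle and 334 to 416 CPM in BPA, with 7 of 9 above the floor throughout. What part these cell types have in the values of the members was not tested, except where a value without a library is given.

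The main comparison asked whether maternal BPA changed the transcript levels of these genes. No member passed edgeR's quasi-likelihood test, fitted and adjusted across all genes. The filter on low counts left 36 members, of which 0 were below 0.1 after Benjamini-Hochberg adjustment, as were 0 of all 13741 genes tested (0%). Before adjustment, 1 member had a p under 0.05, the mitochondrial co-chaperonin Hspe1, against 302 genes or 2.20% in all. Vehicle and BPA libraries did not overlap for 2 members, Hspe1 and Creld2, both lower in BPA, which is 5.56% of the members tested against 6.75% of all genes tested. Member log2 fold changes (BPA over vehicle) were above 0 for 19 genes and below 0 for 17. Their median was 0.01, against 0.00 over all genes tested.

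The intervals show how large a difference these libraries would still allow. For 32 of these 36 members (88.9%), the 95% interval of the fold change lay within 1.5-fold in either direction, against 9777 of all genes tested (71.2%). Most members were abundant, and their standard errors ran from 0.0892 to 0.284 on the log2 scale. The members whose intervals reached past 1.5-fold were Hspa2, Hspa8, Hspe1 and Sdf2l1.

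**Figure D1:**
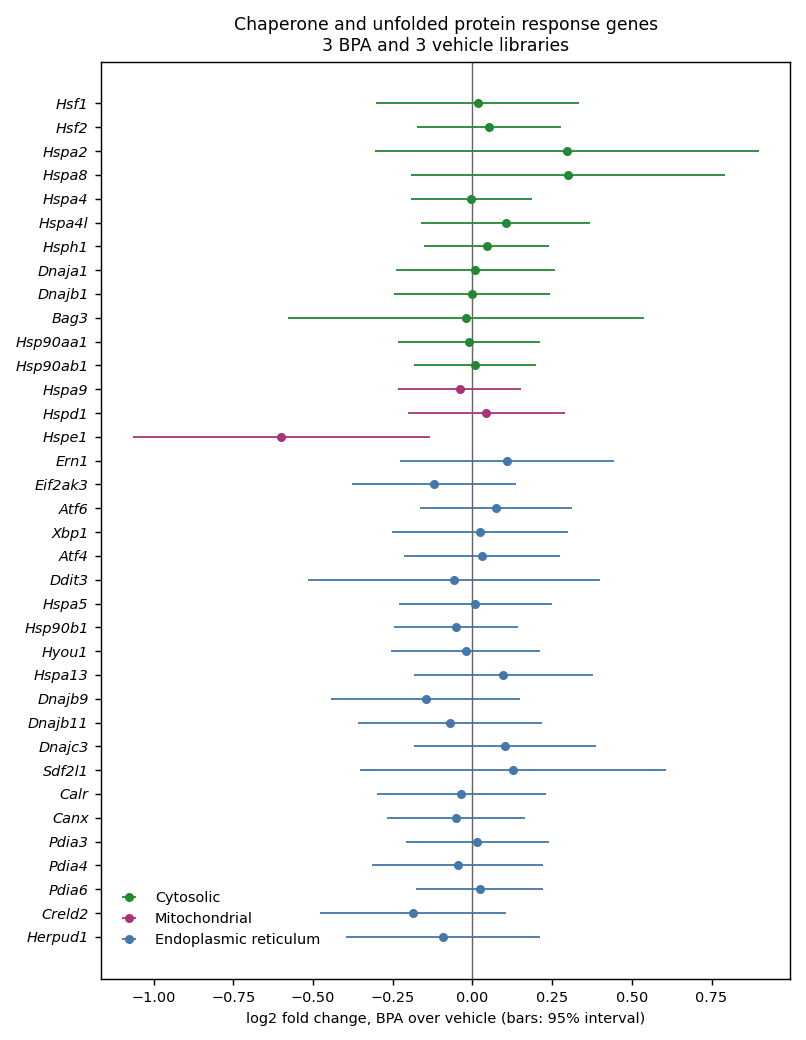
Log2 fold change of BPA over vehicle (x axis) for the 36 members tested, 1 row per gene, with points for the estimate from edgeR's fit and bars for its 95% interval, colored by compartment. All intervals but that of Hspe1 include 0, and the members with the widest intervals are Hspa2, Bag3, Hspa8, Sdf2l1, Hspe1 and Ddit3.

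Levels of different genes were compared as CPM per kilobase of exonic length, which lessens the effect of transcript length. This length merges all annotated exons of a gene, so a gene expressed mainly as a shorter transcript is understated. Reads lost to near-identical copies may also lower a level, as for Hspa8 and Hsp90aa1. The order of genes below is approximate for both reasons. By far the highest was Hsp90ab1, the constitutive cytosolic Hsp90, at 804 CPM per kilobase over all libraries. Next came the ER lectin chaperone Calr at 109 and the disulfide isomerase Pdia3 at 87.9, followed by Atf4 and the constitutive Hsp70 gene Hspa8, both at 81.7 CPM per kilobase. The ranges of Atf4 (68.9 to 92.7) and of Pdia3 (79.1 to 99.7) overlapped, as did the range of Hspa8 (45.2 to 118), so the order of these neighbors is not settled. Among genes known as inducible, Hsp90aa1 reached 24.2 CPM per kilobase. The ratio of Hsp90ab1 to Hsp90aa1 lay between 30.9 and 36.4 in every library. At the low end were Ern1 at 4.15, Hspa4l at 4.04, the Hsp70 co-chaperone Bag3 at 1.82 and Hspa2 at 1.51 CPM per kilobase.

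**Figure D2:**
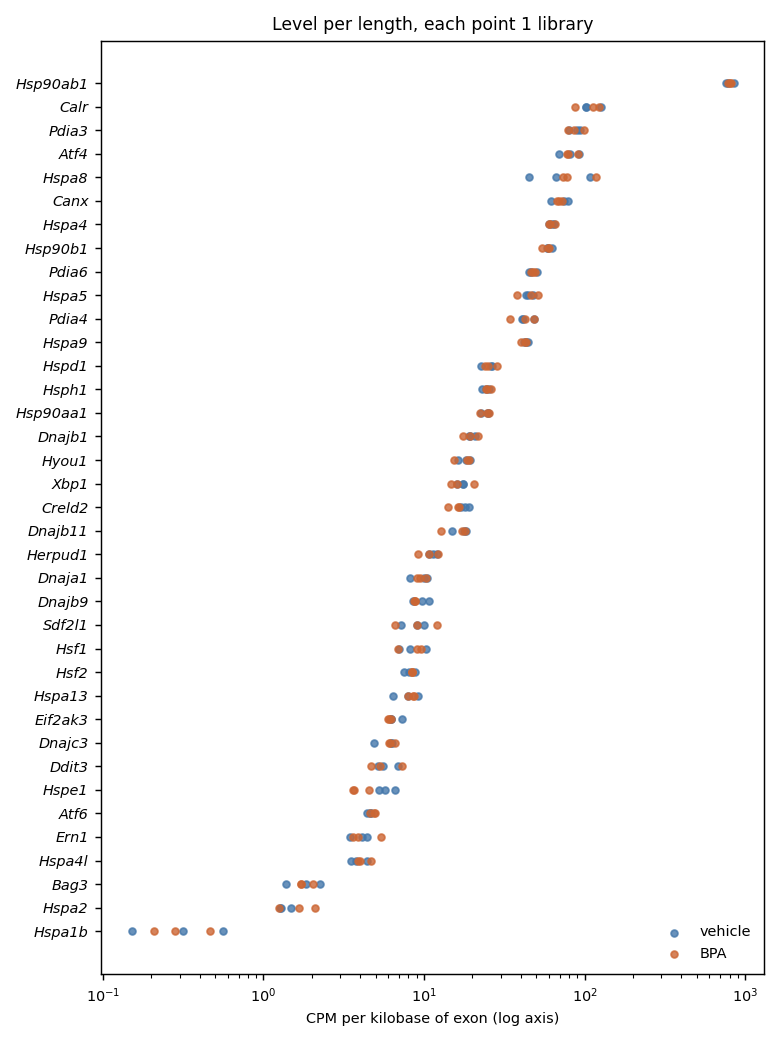
Level per length of 37 members in each library, as CPM per kilobase of exon on a log axis, with blue points for vehicle and orange points for BPA. Hspa1a and Hspb1 are left out because some libraries held 0 counts. Hsp90ab1 stands alone at the top near 804, Hspa1b is lowest, and the colors intermingle in nearly every row.

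The cytosolic genes begin with their transcription factors. Hsf1, the main activator of the heat shock response, was at 49.7, 72.9 and 58.4 CPM in vehicle replicates 1 to 3 and at 64.5, 68.1 and 49.0 CPM in BPA replicates 1 to 3. Its libraries overlapped fully between the groups, with a log2 fold change of 0.02 and a standard error of 0.150. Hsf2, a related factor active in development, was steadier, at 77.7, 84.6 and 72.0 CPM in vehicle and 80.6, 81.4 and 81.1 CPM in BPA, and had a log2 fold change of 0.05 (SE 0.107).

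The classical stress-inducible heat shock genes were at or near the detection floor of 3 counts in both groups. Hspa1a, which encodes inducible Hsp70, had 3, 2 and 0 counts in vehicle and 0, 2 and 1 counts in BPA. Its near-identical neighbor Hspa1b had 6, 3 and 8 counts in vehicle and 5, 8 and 2 in BPA, above the floor in 4 of 6 libraries. Hspb1, encoding the small heat shock protein Hsp25, had 1 count in vehicle replicate 1 and 0 in each of the other 5 libraries. None of the 3 genes passed the filter on low counts, and no fold change is given for them. Of the 50-base stretches in their transcripts, 66.3% (Hspa1a), 62.3% (Hspa1b) and 50.1% (Hspb1) also occur in transcripts of other genes, so reads of this length may have been lost where the counting left out reads with several alignments, an option the sources used here do not state.

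Hspa8, the constitutive Hsp70 that also uncoats clathrin vesicles at synapses, varied most between libraries of all members averaging at least 100 CPM. It was at 194, 466 and 286 CPM in vehicle and at 336, 508 and 317 CPM in BPA. The highest libraries were vehicle 2 and BPA 2 and the lowest was vehicle 1, so the groups overlapped over most of their range. The coefficient of variation over the 6 libraries was 33.2%, the second largest of 2712 genes averaging at least 100 CPM, among which the median was 7.99%. The log2 fold change was 0.30 (SE 0.232, 95% interval -0.19 to 0.79), and the unadjusted p was 0.216 by edgeR's test.

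The same libraries that were high for Hspa8, vehicle 2 and BPA 2, were the ones with high choroid plexus markers. Ttr, the transport protein that defines this epithelium, had 1386 counts in vehicle 2 and 1898 in BPA 2, against 15 to 76 in the other 4 libraries. Without both libraries the log2 fold change of Hspa8 was 0.46 and the unadjusted p 0.00215 by edgeR's test. In that setting, 954 of all 13643 genes tested had an unadjusted p under 0.05, against 302 of 13741 with all libraries. Leaving out vehicle 2 alone gave 0.70 and leaving out BPA 2 alone gave 0.05, and without vehicle 1 it was 0.04. The size of the difference thus rested on which fetuses were included, and the part of the choroid plexus in it was not tested. Of the 50-base stretches of Hspa8, 39.4% occur elsewhere, mostly in Gm15459, which had 0 counts throughout, and Gm26825, which had 5 to 20. Summing the gene with its near-identical copies left the log2 fold change at 0.30. The copies held too few counts beside the 1088 to 3310 of Hspa8 for the sum to move it. Reads left out of the counting would not be recovered by a sum.

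**Figure D3:**
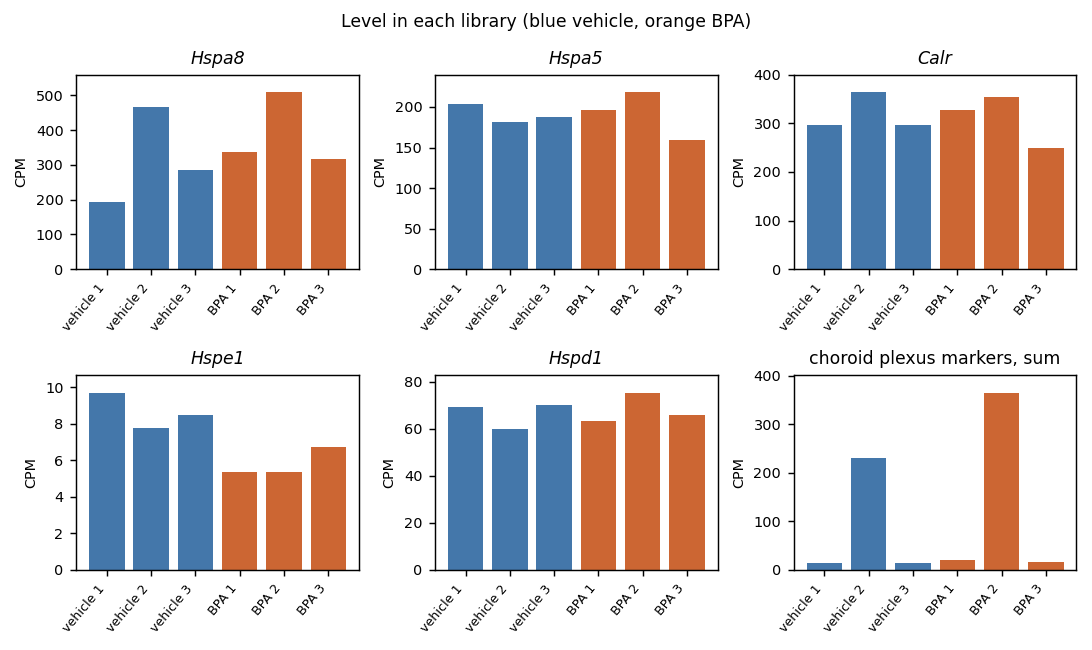
CPM in each of the 6 libraries (bars from 0, blue for vehicle and orange for BPA) for Hspa8, Hspa5, Calr, Hspe1 and Hspd1, and the summed CPM of the choroid plexus markers. The bars of Hspa8 and of the marker sum are both highest in vehicle 2 and BPA 2, and the 3 Hspe1 bars for BPA (5.34 to 6.71) stay below those for vehicle (7.74 to 9.71), unlike those of Hspd1.

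For the other members of the Hsp70 and Hsp110 family the groups overlapped too. Hspa4, an Hsp110 that serves as a nucleotide exchange factor for Hsp70, was at 355, 330.4 and 349 CPM in vehicle and at 334, 337 and 361 CPM in BPA. This was among the steadiest members, with a coefficient of variation of 3.65% and a 95% interval from -0.19 to 0.19 on the log2 scale. Hsph1, of the same type, ranged from 168 to 184 CPM in vehicle and from 177 to 189 CPM in BPA. Hspa4l, another Hsp110, ranged from 41.5 to 51.8 CPM in vehicle and from 45.5 to 54.9 CPM in BPA. Hspa2, an Hsp70 best known from male germ cells, was low, at 3.38, 3.94 and 3.35 CPM in vehicle and 3.30, 5.53 and 4.38 CPM in BPA, and its log2 fold change of 0.30 (SE 0.284) had the widest interval of the set.

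The Hsp90 genes overlapped between the groups as well. Hsp90ab1 was at 2297, 2568 and 2352 CPM in vehicle and at 2427, 2464 and 2361 CPM in BPA. The estimated log2 fold change was 0.01 (95% interval -0.18 to 0.20). The inducible form Hsp90aa1 ranged from 89.4 to 98.6 CPM in vehicle and from 87.5 to 100.1 CPM in BPA. Sequence sharing was large for Hsp90aa1, at 47.5% of its 50-base stretches, and the locus with most of the shared stretches, Gm12346, held 82 to 163 counts itself, so part of what was counted there may belong to Hsp90aa1.

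Co-chaperones deliver substrates to Hsp70 or help release them. The J-domain protein Dnaja1 ranged from 70.4 to 89.9 CPM in vehicle and from 78.0 to 89.0 CPM in BPA. Dnajb1, the J-domain partner of inducible Hsp70, ranged from 61.0 to 66.3 CPM in vehicle and from 56.0 to 69.9 CPM in BPA. Bag3, an exchange factor that directs clients to autophagy, stayed between 3.55 and 5.77 CPM. Of the 12 cytosolic members tested, 8 had a log2 fold change above 0 and 4 below it, from -0.02 to 0.30 with a median of 0.01, and 0 passed either threshold.

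Of the 3 mitochondrial chaperones, 1 had groups that stood apart, against 6.75% of all genes tested. With 3 genes this count says little about the compartment. Hspa9, the mitochondrial Hsp70 (mortalin), was at 191, 180 and 185 CPM in vehicle and at 172, 185 and 183 CPM in BPA. Hspd1, the chaperonin Hsp60 that encloses folding proteins in a barrel, was at 69.1, 59.7 and 70.2 CPM in vehicle and at 63.3, 75.4 and 65.9 CPM in BPA. Both overlapped between the groups, with log2 fold changes of -0.04 (SE 0.0914) and 0.04 (SE 0.116).

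Hspe1 encodes Hsp10, the lid of the Hsp60 barrel. It was at 9.71, 7.74 and 8.48 CPM in vehicle and at 5.34, 5.36 and 6.71 CPM in BPA, from 66, 55 and 43 counts and 34, 33 and 23 counts. Every BPA library was below every vehicle library. Vehicle averaged 8.64 ± 0.992 CPM (SD, n = 3) and BPA 5.80 ± 0.785 CPM (SD, n = 3), a log2 fold change of -0.60 (SE 0.219, 95% interval -1.07 to -0.13). By edgeR's quasi-likelihood test p was 0.0148 before and 0.9998 after Benjamini-Hochberg adjustment over all genes, so the difference did not hold up against the number of genes searched. The estimate depended on few reads: in a single random draw that thinned every library to the smallest total, it was -0.32 (unadjusted p 0.220 by edgeR's test). Other draws were not made. The log2 fold change was -0.50 without vehicle 1 (unadjusted p 0.0635) and -0.55 without BPA 1 (unadjusted p 0.0537), and ran from -0.69 to -0.50 over the 6 libraries left out in turn.

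Hspe1 and Hspd1 lie head to head on chromosome 1 of GRCm38 (chr1:55088132-55091307, plus strand, and chr1:55077835-55088243, minus strand), and their annotated exons overlap by 112 bases on opposite strands. They are transcribed outward from a shared promoter. The ratio of Hspe1 to Hspd1 per length was 0.216 to 0.252 in vehicle and 0.127 to 0.182 in BPA, without overlap. Hspe1 itself did not overlap between the groups while Hspd1 did. The ratio therefore largely restates the values of Hspe1 and is no separate evidence. Pseudogenes bear on both genes. Of the 50-base stretches, 42.1% of those of Hspd1 and 22.8% of those of Hspe1 occur elsewhere, and Hspd1-ps3 held 163 to 366 counts. For Hspe1 the locus with most shared stretches was AC117239.2 (17.89%), which has no row of counts. Hspe1-ps3 shared only 1.12% of the stretches of Hspe1. It had 0 or 1 counts in the vehicle libraries and 2 to 4 in the BPA libraries, at or near the floor of 3 counts.

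A stretch between the RefSeq start sites of Hspe1 and Hspd1 is shown because it holds the only matches to the heat shock element found upstream of a member. The GENCODE model of Hspd1 starts further out than the RefSeq one, so by GENCODE the stretch overlaps an annotated exon. The motif, the binding sequence of heat shock factors, was searched on both strands as GAANNTTCNNGAA in windows from 250 bases before to 50 bases after the start of each gene, taken from RefSeq (GRCm38.p6). It occurs in 0.662% of the 27025 genes with a window and in 3 of the 31 members with one, the third being Hsph1, where it lies after the start. Only this exact form was searched, so a member without a match may still hold another form. The table used held no window for Hspa8, Hsp90aa1, Hsp90ab1, Hsf1, Hspa9, Hyou1, Hspa13 and Atf6, so these 8 members were not searched for any motif. Capitals mark 2 overlapping matches, which lie on opposite strands and are the same bases for both genes (chr1:55088059-55088076), 72 to 89 bases before the RefSeq start of Hspe1. The whole stretch printed is chr1:55088053-55088082. Each name is followed by the sequence on the strand of that gene.
Hspe1: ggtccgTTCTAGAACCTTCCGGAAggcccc
Hspd1: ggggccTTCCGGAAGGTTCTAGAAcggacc

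In the ER, all 3 stress sensors were expressed, and for each of them the groups overlapped. Ern1, which encodes the kinase and RNase IRE1α, was at 36.3, 33.4 and 28.4 CPM in vehicle and at 44.3, 29.6 and 31.5 CPM in BPA. Eif2ak3, encoding PERK, was at 44.3, 37.3 and 37.7 CPM in vehicle and at 37.4, 36.2 and 36.2 CPM in BPA. Atf6 was at 43.1, 40.8 and 42.6 CPM in vehicle and at 45.4, 42.4 and 45.5 CPM in BPA. The high values of Ern1 and Eif2ak3 were each 1 library, BPA 1 and vehicle 1, while Atf6 varied by only 4.22% over all 6 libraries. Their log2 fold changes were 0.11 (SE 0.158), -0.12 (SE 0.121) and 0.07 (SE 0.112).

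Next come the transcription factors downstream of the sensors. Xbp1, whose message IRE1 splices, was at 56.5, 51.8 and 57.0 CPM in vehicle and at 52.3, 66.8 and 47.6 CPM in BPA. Atf4, which is controlled mainly through translation, was at 162, 218 and 191 CPM in vehicle and at 186, 215 and 183 CPM in BPA. Ddit3, which encodes CHOP and is induced when ER stress persists, was low, at 8.82, 9.57 and 11.8 CPM in vehicle and at 9.11, 7.96 and 12.5 CPM in BPA. All 3 overlapped between the groups, and none had an absolute log2 fold change above 0.06. Counts per gene do not separate spliced from unspliced Xbp1 and do not report the translation of Atf4 or the cleavage of Atf6, so the activity of these arms was not measured here.

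ER chaperones are the usual readout of the response. Hspa5, which encodes BiP, the ER Hsp70 that binds the sensors (chr2:34771970-34777547, plus strand), was at 203, 181 and 188 CPM in vehicle and at 196, 218 and 160 CPM in BPA. Both the highest and the lowest library were BPA libraries, and the group means were 191 ± 11.2 CPM (SD, n = 3) for vehicle and 191 ± 29.6 CPM (SD, n = 3) for BPA. With a log2 fold change of 0.01 (SE 0.113), the 95% interval ran from a fold of 0.853 to 1.19. Hsp90b1, the ER Hsp90 (GRP94), was at 237, 253 and 234 CPM in vehicle and at 239, 241 and 219 CPM in BPA, and had a log2 fold change of -0.05 (SE 0.0916).

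The remaining ER Hsp70 relatives and J-domain proteins are given by their ranges. Hyou1, an ER Hsp110, spanned 111 to 140 CPM over all libraries, and Hspa13, a microsomal Hsp70-like protein, spanned 43.6 to 62.8 CPM. Of the J-domain proteins, Dnajb11 (ERdj3) spanned 41.4 to 59.0 CPM and Dnajc3 (P58IPK), an inhibitor of PERK, spanned 25.0 to 34.0 CPM. Dnajb9 (ERdj4) is a partner of BiP in degradation and in repressing IRE1. Its level was 21.8, 27.5 and 24.8 CPM in vehicle and 22.5, 22.3 and 22.2 CPM in BPA, a log2 fold change of -0.15 (SE 0.140). Sdf2l1, a small partner of ERdj3, was low and spread from 7.29 CPM in BPA 3 to 13.3 CPM in BPA 2. None of these 6 genes had groups that stood apart.

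Lectin chaperones and disulfide isomerases were among the most abundant members. Calr, the soluble lectin chaperone calreticulin, was at 296, 364 and 296 CPM in vehicle and at 327, 355 and 249 CPM in BPA. Pdia3, the disulfide isomerase that works with it, was at 250.5, 292 and 281 CPM in vehicle and at 270.3, 313 and 248 CPM in BPA. In both genes vehicle 2 and BPA 2 were the highest libraries and BPA 3 the lowest. Canx, the membrane-bound counterpart of Calr, followed another order, with vehicle 1 highest at 372 CPM and vehicle 2 lowest at 292 CPM. Pdia4 spanned 82.9 to 117 CPM and Pdia6 spanned 168 to 188 CPM, and their groups overlapped. Herpud1, an ER membrane protein of the degradation machinery, spanned 21.4 to 28.6 CPM.

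Creld2, a secreted ER protein strongly induced by ER stress (chr15:88819646-88826683, plus strand), was the second member without overlap. It was at 23.1, 25.9 and 24.5 CPM in vehicle and at 22.5, 22.3 and 19.3 CPM in BPA. The BPA libraries were lower by a narrow margin, averaging 21.3 ± 1.79 CPM (SD, n = 3) against 24.5 ± 1.41 CPM (SD, n = 3) for vehicle. Its log2 fold change of -0.19 (SE 0.137) had an unadjusted p of 0.191 by edgeR's fit, so the difference was within what the fitted spread allows.

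By library, the order of the ER genes ran across the groups. BPA 3, the library with the fewest counts, was the lowest of the 6 for 11 of the 21 ER genes (52.4%), whereas it was the lowest for 19.5% of all genes tested. Vehicle 2 was the highest for 8 and BPA 2 for 7 of the 21. The mean deviation of the ER genes from their own averages, in log2 units, was -0.12 in BPA 3, 0.08 in BPA 2 and between -0.0007 and 0.03 in the other 4 libraries. Of the ER genes, 10 had a log2 fold change above 0 and 11 below it, from -0.19 to 0.13 with a median of -0.02. Without BPA 3 the median was 0.06. Whether depth or the makeup of the dissected tissue had a part in the low ER values of BPA 3 was not tested. Its choroid plexus marker sum of 16.3 CPM was like that of the other 3 low libraries, while its ventral telencephalon marker sum of 608 CPM was the lowest of the 6 libraries, the next being 697 CPM in BPA 1.

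**Figure D4:**
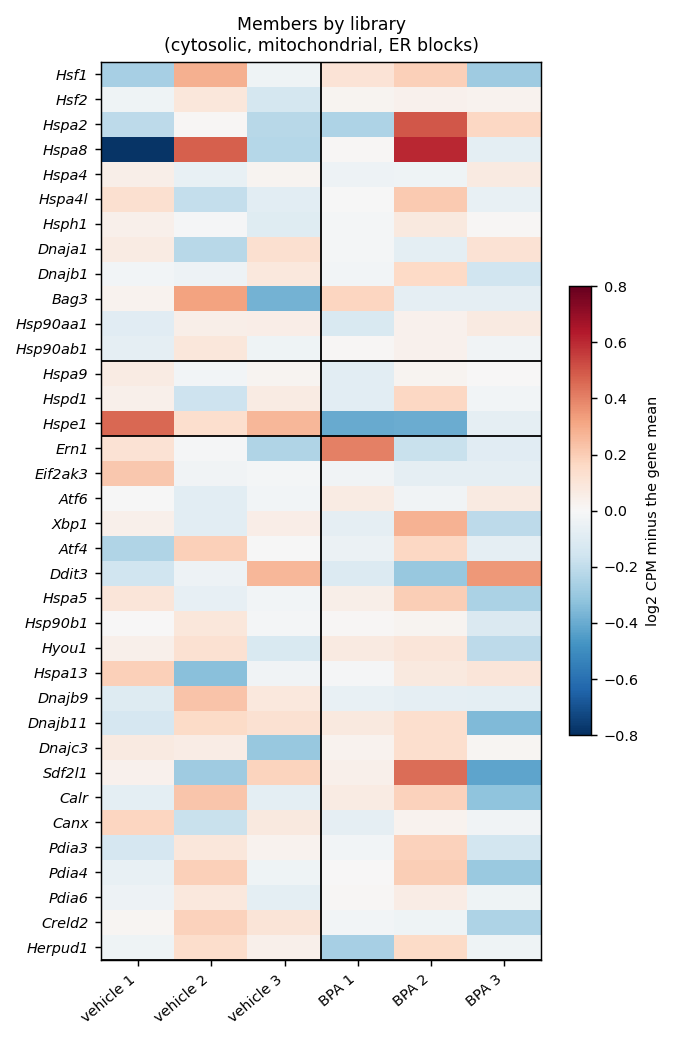
Log2 CPM of each of the 36 members tested minus that gene's mean over the 6 libraries, with red for higher and blue for lower, genes in rows and libraries in columns. Lines separate the cytosolic, mitochondrial and ER blocks and the vehicle from the BPA libraries. Hspa8 is darkest red in vehicle 2 and BPA 2 and darkest blue in vehicle 1, Hspe1 turns from red in vehicle to blue in BPA, and many ER genes are blue in BPA 3.

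The promoters of some ER genes hold an element that is a known link between ER stress and transcription, and they are shown for that reason. The members were listed as unfolded protein response genes, so a larger share among them than among all genes is no separate finding. The ER stress response element, bound by ATF6 together with NF-Y, was searched on both strands as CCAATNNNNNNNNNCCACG. It was present in 7 of the 31 members with a RefSeq window and in 0.137% of the 27025 genes with one. The 7 genes were Hspa5, Hsp90b1, Calr, Canx, Creld2, Dnajc3 and Pdia6. A second form, ATTGGNCCACG, was found in Herpud1 and, after the start, in Dnajb11, against 0.044% of genes. Both forms share the letters CCACG, and ATTGG is CCAAT read on the other strand.

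These stretches are on the strand of the gene in GRCm38.p6, 5′ to 3′, with the element in capitals. All lie before the RefSeq start, but the GENCODE model of Hspa5 starts further out. By GENCODE the Hspa5 stretch therefore overlaps an annotated exon. Where it reads CGTGG to ATTGG the element lies on the opposite strand, as in Calr and Creld2, and Hsp90b1 has 1 in each direction. Positions in order are chr2:34772020-34772048, chr10:86705513-86705676, chr8:84847055-84847113, chr11:50325780-50325838, chr15:88819500-88819558, chr14:118937807-118937865, chr12:17266471-17266529 and chr8:94386357-94386407.
Hspa5: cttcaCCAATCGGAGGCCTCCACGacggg
Hsp90b1: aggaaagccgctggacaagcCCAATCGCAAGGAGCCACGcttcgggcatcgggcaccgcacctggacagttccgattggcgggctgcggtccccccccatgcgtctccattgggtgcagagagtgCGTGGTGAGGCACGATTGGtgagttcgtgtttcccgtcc
Calr: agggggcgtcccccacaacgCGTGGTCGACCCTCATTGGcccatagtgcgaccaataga
Canx: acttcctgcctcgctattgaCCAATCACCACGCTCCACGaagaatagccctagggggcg
Creld2: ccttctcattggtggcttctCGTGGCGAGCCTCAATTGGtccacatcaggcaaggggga
Dnajc3: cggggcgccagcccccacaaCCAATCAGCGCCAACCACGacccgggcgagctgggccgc
Pdia6: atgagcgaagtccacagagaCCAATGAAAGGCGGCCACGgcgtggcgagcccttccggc
Herpud1: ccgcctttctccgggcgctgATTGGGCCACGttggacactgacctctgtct

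Genes that carry the element differed in their order of libraries. Hspa5, Calr, Hsp90b1 and Creld2 were lowest in BPA 3, while Canx was lowest in vehicle 2 and both Pdia6 and Dnajc3 in vehicle 3. Among the 7 genes, 3 had a log2 fold change above 0 (Hspa5, Dnajc3 and Pdia6) and 4 below 0. The XBP1 site TGACGTGG was found in 0 of the 31 members searched and in 0.714% of genes, and the amino acid response element TGATGCAA, a site for ATF4, in Herpud1 alone among members and in 1.03% of genes. A match describes these letters only and is no measure of binding.

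Other genes of protein folding and ER stress were read from 8 lists of 180 genes, of which 171 were tested. None passed 0.1 after adjustment by edgeR's test, and 2 (1.17%) had an unadjusted p under 0.05, against 2.20% of all genes tested. Of the 171, 78 had a log2 fold change above 0 and 93 below it, with a median of -0.01, and 11 (6.43%) had groups that did not overlap, against 6.75% of all genes tested. Of these 11, 7 were higher and 4 lower in BPA.

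Partners of cytosolic chaperones had 18 of 32 genes above 0 and 14 below. Their smallest p-values belonged to the small heat shock protein Hspb6, at 7.73 ± 1.81 CPM (SD, n = 3) for vehicle and 5.23 ± 1.80 CPM (SD, n = 3) for BPA, and to the Hsp70 exchange factor Hspbp1, with a log2 fold change of -0.18 (SE 0.117). In the chaperonin and prefoldin list, which serves actin and tubulin, 3 of 14 genes were above 0 and 11 below, led by Pfdn6 at -0.20 (SE 0.129) and Pfdn1 at -0.21 (SE 0.166). Mitochondrial import and protein quality genes split into 12 above and 10 below 0, led by the protease subunit Spg7 at 0.19 (SE 0.110) and the outer membrane channel Tomm40 at -0.20 (SE 0.121). The groups of Spg7 did not overlap, with BPA higher.

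Of 23 further ER folding and quality control genes, 15 were above 0 and 8 below. Uggt2, related to the enzyme that re-tags misfolded glycoproteins, averaged 24.3 ± 1.09 CPM (SD, n = 3) for vehicle and 29.9 ± 3.33 CPM (SD, n = 3) for BPA without overlap, at a log2 difference of 0.29 (SE 0.134) and an unadjusted p of 0.0443 in edgeR's fit. The ER peroxiredoxin Prdx4 was at -0.31 (SE 0.186). ER translocation and glycosylation had 6 genes above and 15 below 0, led by the oligosaccharyltransferase subunits Ostc at 0.18 (SE 0.115) and Rpn2 at -0.15 (SE 0.105). For Ostc the groups did not overlap, with BPA higher. ER-associated degradation was even, at 11 and 11, led by the ATPase Vcp at 0.23 (SE 0.147) and the channel protein Derl1 at -0.19 (SE 0.126).

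Signaling genes of the unfolded protein response had 7 of 16 above 0 and 9 below. Bax, a promoter of apoptosis that also binds IRE1, averaged 59.2 ± 2.15 CPM (SD, n = 3) for vehicle and 47.0 ± 1.08 CPM (SD, n = 3) for BPA. Its groups did not overlap, and its log2 fold change of -0.33 (SE 0.108) had an unadjusted p of 0.00769 and, over all genes, an adjusted p of 0.9998 by edgeR. The ER-anchored factor Creb3l2 was at -0.26 (SE 0.180), also without overlap. Targets of the integrated stress response, which ATF4 drives, had 6 genes above 0 and 15 below with a median of -0.06. Among them Chac1, a glutathione-degrading enzyme, averaged 4.83 ± 0.262 CPM (SD, n = 3) for vehicle and 3.01 ± 1.65 CPM (SD, n = 3) for BPA, and the cystine transporter Slc7a11 had a log2 fold change of -0.36 (SE 0.260). Neither had an unadjusted p under 0.05.

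Responses that often accompany stress during tissue handling were measured beside the members. The summed level of 18 immediate early genes was 293 to 319 CPM in vehicle and 277 to 315 CPM in BPA, and that of 16 hypoxia genes was 741 to 830 CPM in vehicle and 798 to 859 CPM in BPA. Both sums overlapped between the groups. Of the 13 immediate early genes tested, 3 had a log2 fold change above 0 and 10 below it. By edgeR's test 1 of them, Klf2, had an unadjusted p under 0.05 (7.69%, against 2.20% of all genes tested). The same 1 gene had groups that did not overlap (7.69%, against 6.75% of all genes tested). Klf2 was lower in every BPA library, with a log2 fold change of -1.14 (SE 0.301, unadjusted p 0.00169, adjusted p 0.9998 by edgeR). Its part in the members' values was not tested. Microglial markers summed to 50.7 to 67.2 CPM in vehicle and 55.9 to 63.2 CPM in BPA, and vessel and meninges markers to 221 to 292 CPM and 218 to 275 CPM.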

How the data were processed

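Total RNA from 6 fetal cortices was made into strand-specific libraries and read as single ends of 50 bases, according to the study's methods. The authors aligned reads with TopHat2 2.0.14 to GRCm38 and deposited raw read counts per gene, made with featureCounts on GENCODE models. Use of strand and of reads with several alignments is not given in the sources used here. The members, lists and tests were chosen with earlier results of these data known.

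Counts were fitted across all genes in R 4.3.3 with edgeR 4.0.16: filterByExpr (minimum count 10, minimum total 15), TMM scaling, glmQLFit and glmQLFTest of BPA against vehicle without covariates, and Benjamini-Hochberg adjustment at 0.1. This kept 13741 genes with 99.7% of counts, at a biological coefficient of variation of 0.106. Standard errors were derived from the fold change and the F statistic. CPM used TMM-scaled library sizes. Deviations by library were computed on log2 CPM with a prior count of 2. Exonic lengths, positions and the 50-base transcript stretches came from GENCODE M21, promoter windows from RefSeq. The fitting was tested on simulated data.

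All members are named. Values per library are given for sensors and transcription factors, Hspa1a, Hspa1b, Hspa5, the 3 highest members per length in each compartment, the 5 with the smallest unadjusted p, and those whose groups do not overlap. Of each further list the 2 genes with the smallest p are named. Alternatives were DESeq2 1.42.0, limma-voom (limma 3.58.1), edgeR's likelihood ratio test, other scalings and filters, thinning, summed near-identical copies and each library left out. Thinning was a single random draw. Leaving out both libraries rich in choroid plexus markers was chosen after seeing the data.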

Additional observations from a re-analysis of the deposited data

How the results depend on the processing

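Members past an adjusted p of 0.1 numbered 0 under all alternatives run. Genes past it in the whole table, 0 as reported, were 19 without a filter, 3 in DESeq2, 4 in the likelihood ratio test, 15 without both libraries rich in choroid plexus markers, and 0 to 1 with 1 library left out (1 without vehicle 3 or BPA 2). Members with an unadjusted p under 0.05 were 2 without a filter (Hspa8 and Hspe1), 0 with a filter at 10 CPM, which removes Hspe1 and 4 other members, 0 after thinning to equal depth, 2 without both choroid-rich libraries, and 0 to 2 with 1 library left out. It was 0 without vehicle 1 or BPA 1 and 2 without vehicle 2. Hspa8 had a log2 fold change of 0.04 (without vehicle 1) to 0.70 (without vehicle 2). Genes of the 8 further lists at this limit were 1 in DESeq2 and 9 without both choroid-rich libraries. With 1 library left out there were 1 to 7: 7 without vehicle 2 or BPA 2, 4 without vehicle 1, and 1 without vehicle 3 or BPA 1. The count over all genes tested moved too, from 302 of 13741 as reported to 954 of 13643 without both choroid-rich libraries. It was 708 of 13886 without vehicle 2, 563 of 14010 without BPA 2 and 346 of 13925 without vehicle 1. DESeq2 gave 126 of 13741, no filter 620 of 23501, and thinning 298 of 12748. The median log2 fold change of the ER genes ran from -0.0832 to 0.0639 with 1 library left out, turning positive without BPA 3. The causes of these shifts were not tested.

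Log2 fold changes near 0 changed sign in 11 of 358 member values under other settings and in 52 of 216 with 1 library left out, none above 0.164 in size. The setting without both choroid-rich libraries entered these counts for Hspa8, Hspe1 and Creld2 only. Thinning gave 0.0567 for Hsp90aa1, -0.00157 for Hsp90ab1, -0.0198 for Xbp1, 0.0828 for Ddit3, 0.0267 for Hyou1, -0.0601 for Sdf2l1 and -0.0225 for Pdia6. Library size alone gave 0.000268 for Hspa4 and 0.00329 for Dnajb1, and limma-voom 0.000752 for Dnajb1 and 0.000368 for Bag3. With 1 library left out the ranges were, among cytosolic genes, -0.11 to 0.18 for Hsf1, -0.00394 to 0.11 for Hsf2, -0.0407 to 0.0174 for Hspa4, -0.0915 to 0.0755 for Dnaja1, -0.094 to 0.0632 for Dnajb1, -0.16 to 0.16 for Bag3, -0.056 to 0.0473 for Hsp90aa1 and -0.0254 to 0.0584 for Hsp90ab1. The range for mitochondrial Hspd1 was -0.0404 to 0.0987. In the ER they were -0.11 to 0.23 for Ern1, -0.14 to 0.11 for Xbp1, -0.074 to 0.14 for Atf4, -0.23 to 0.0754 for Ddit3, -0.0966 to 0.12 for Hspa5, -0.0868 to 0.0639 for Hyou1, -0.0343 to 0.23 for Hspa13, -0.16 to 0.0521 for Dnajb11, -0.00475 to 0.16 for Dnajc3, -0.11 to 0.28 for Sdf2l1, -0.14 to 0.0961 for Calr, -0.15 to 0.0249 for Canx, -0.0832 to 0.0863 for Pdia3, -0.17 to 0.0657 for Pdia4, -0.0112 to 0.0729 for Pdia6 and -0.22 to 0.0214 for Herpud1. No paired analysis was possible because the labels give no replicate numbers shared by the groups. Precision is limited by 3 fetuses per group and, for Hspe1, Hspa2, Bag3, Ddit3 and Sdf2l1, by low counts. Counts per gene do not resolve near-identical copies or overlapping transcripts.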
